A study of Drosophila melanogaster with 24 samples.

Results

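The genes described are 9 markers of neurons and synapses: elav, futsch, nSyb, Syt1, Ddc, ple, para, Ank2 and Cdk5. Members were found through the platform annotation, by taking each probe set that named 1 of these genes and no other. This gave 13 probe sets for 8 of the 9 genes, out of 13966 probe sets on the array without the array maker's controls. Syt1, the calcium sensor of transmitter release, had no such probe set, so it has no value here. Ank2 and Cdk5 were picked for their pattern over the groups. Their values are therefore given as a description with no test. The other genes entered as known neuronal markers and were tested. The members were, however, chosen with earlier results of these data known, so they are not an independent set.

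Transcript levels were measured with Affymetrix arrays in adult whole females of Drosophila melanogaster, 1 array per line and 3 lines in each of 8 groups (24 arrays). One group was an unselected control. The others were lines selected for resistance to heat, cold, knock_down, starvation or desiccation, lines selected for longevity, and constant 30 lines, whose flies were held at 30 degrees per the labels. The strain, its alleles, the age, the kind of knock_down and the number of generations are not stated in the labels. RNA came from 10 females per vial, and 5 micrograms of it were labelled after oligo-dT priming.

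Neurons signal through voltage-gated channels along the axon and through vesicles that fuse at the synapse. elav encodes an RNA-binding protein found in nearly all postmitotic neurons of the fly. futsch, the fly relative of MAP1B, binds microtubules in axons and motor terminals, and nSyb is the synaptobrevin of synaptic vesicles. ple (tyrosine hydroxylase) and Ddc (DOPA decarboxylase) make dopamine, in neurons and also in the epidermis, where dopamine is used to tan and darken the cuticle. para is the main voltage-gated sodium channel, Ank2 is a neuronal ankyrin that links membrane proteins to spectrin, and Cdk5 is a kinase with roles in neurons. In whole females the nervous system gives a small share of the RNA. Changes in the number of neurons, in RNA per neuron and in the shares of other tissues cannot be told apart from these values.

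Values are log2 expression values as the authors deposited them, after the background correction and normalization of GCRMA. Probe sets were tested where 3 or more of the 24 arrays gave a value above 4, which 9023 of them met. Array medians lay between 5.46 and 5.57. A probe set was called at a Benjamini-Hochberg adjusted p under 0.05 over all tested probe sets, in a limma fit of all 24 arrays. Each log2 change is given with its standard error from that fit, with n = 3 lines per group. Lines are biological replicates per the labels, and p-values reflect how far lines of a group spread.

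Of the 13 probe sets, 9 passed the filter. Those of elav, futsch, nSyb, Ddc and ple, 1 for each gene, were above 4 on all 24 arrays and were the 5 that were tested. The para probe set stayed between 3.03 and 3.30 on the 24 arrays, and the 2 dimmer futsch probe sets stayed under 4 as well. para was therefore not tested. The sequences of the probes and genes were not used here.

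**Figure D1:**
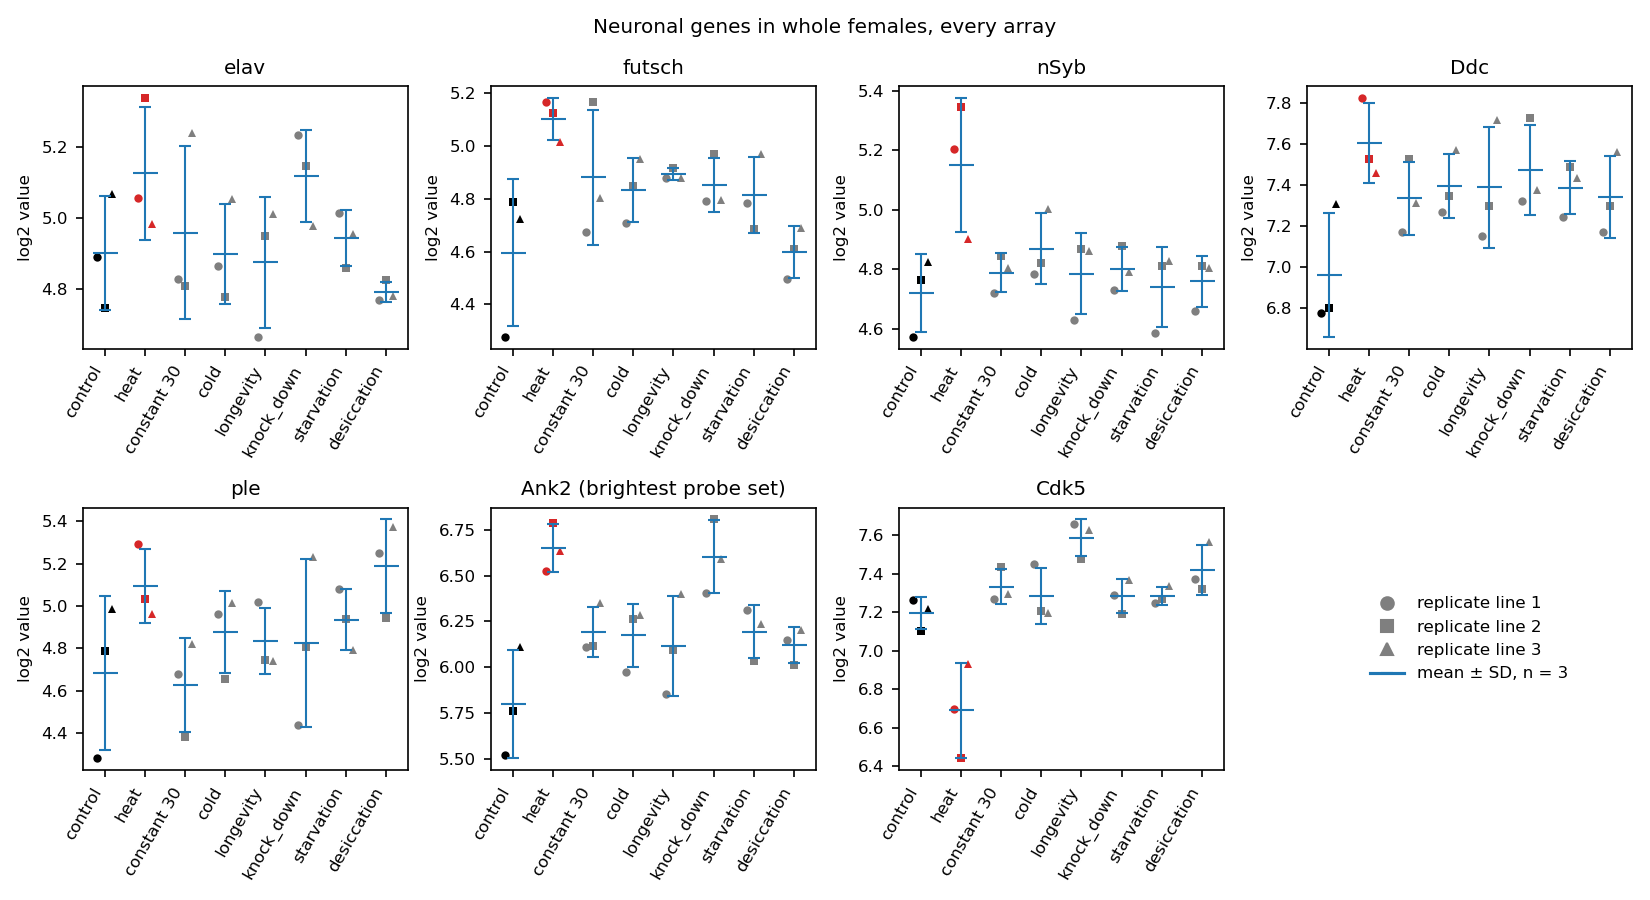
Log2 values of elav, futsch, nSyb, Ddc, ple, the brightest Ank2 probe set and Cdk5 on each of the 24 arrays, with blue bars for the mean ± SD of 3 lines per group (each panel has its own axis range). The heat selected arrays (red) lie above all 3 control arrays (black) for futsch, nSyb, Ddc and Ank2 and below them for Cdk5.

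Transcript levels of nSyb and, on its brightest probe set, of futsch were higher in heat selected females than in control. nSyb was at 5.20, 5.34 and 4.90 on heat selected replicates 1, 2 and 3 and at 4.57, 4.76 and 4.83 on the control arrays. The groups did not overlap, and heat selected replicate 3 lay close to the highest control array. Its log2 change was 0.43 ± 0.10 (SE, 1.35-fold, adjusted p = 0.0382). In the other 6 regimes the nSyb means ran from 4.74 in starvation selected to 4.87 in cold selected females, and the 2 highest of all 24 arrays were heat selected replicates 2 and 1. Cold selected replicate 3, at 5.00, came next and lay above heat selected replicate 3.

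futsch, on its brightest probe set, was at 5.17, 5.13 and 5.02 in heat selected and at 4.28, 4.79 and 4.72 in control females. All 3 heat selected values lay above all control values, and control replicate 1 was the lowest of the 24 arrays. The log2 change was 0.51 ± 0.12 (1.42-fold, adjusted p = 0.0385). Of the 21 arrays that were not heat selected, 20 lay below every heat selected array, and the exception was constant 30 replicate 2, at 5.17. futsch means in the remaining regimes ran from 4.60 in desiccation selected to 4.89 in longevity selected females, so that desiccation selected lay level with control, at 4.60. In the order of the group means, heat selected and longevity selected did not overlap, and every later pair of neighbours did. The other futsch probe sets, which did not pass the filter, differed by 0.01 and 0.0004 between heat selected and control means.

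elav, the general marker of neurons, was at 5.06, 5.34 and 4.98 in heat selected females and at 4.89, 4.75 and 5.07 in control. The groups overlapped. Its log2 change was 0.22 ± 0.12, with a 95% interval from -0.03 to 0.48, and it was not called (adjusted p = 0.317). knock_down selected females were next in the order of means, at 5.12 against 5.13 in heat selected, with values of 5.23, 5.14 and 4.98. Desiccation selected females had the lowest mean, 4.79, and the smallest SD, 0.029. All neighbours in the order of the 8 elav means overlapped.

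Ddc, which makes dopamine and serotonin, was at 7.83, 7.53 and 7.46 in heat selected females and at 6.77, 6.80 and 7.31 in control. The values did not overlap, and control replicates 1 and 2 were the 2 lowest of all 24 arrays. The log2 change was 0.64 ± 0.17 (1.56-fold, adjusted p = 0.0425). In the other regimes the mean of Ddc also lay above control, by 0.38 in constant 30 and desiccation selected, by 0.43 in cold selected, longevity selected and starvation selected and by 0.51 in knock_down selected females. None of these 6 was called (adjusted p from 0.218 to 0.671), and all share the same 3 control arrays. The mean of the 7 regimes stood 0.46 ± 0.12 above control (adjusted p = 0.139), with 14 of the 21 arrays of these regimes above the highest control array, and 0 members were called in it (background 0%, or 10.9% at an unadjusted p under 0.05, which futsch and Ddc had). That difference was called without control replicate 3 (0.63, adjusted p = 0.0146), as was knock_down selected against control (0.69, adjusted p = 0.0322).

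ple, the enzyme before Ddc in dopamine synthesis, had its highest mean in desiccation selected females, with values of 5.25, 4.94 and 5.37. Control values of ple were 4.28, 4.79 and 4.98, and the groups overlapped. The log2 change of 0.50 ± 0.19 was not called (adjusted p = 0.599). Heat selected females were at 5.29, 5.04 and 4.96, a change of 0.41 ± 0.19 with a 95% interval from 0.02 to 0.81 (adjusted p = 0.224). Constant 30 females had the lowest mean, 4.63. ple varied most of the tested members between lines of a group, with a residual SD of 0.25, against 0.13 for nSyb.

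Over the 5 tested genes, 3 were called in heat selected against control, all higher, where 2.84% of all tested probe sets were called and 1.99% were called higher. The 3 whose groups did not overlap, all higher, stand beside 12% of all tested probe sets that were higher without overlap. In knock_down selected females 0 of the 5 were called (background 0.155%), and 1, Ddc, had an unadjusted p under 0.05 (background 10.4%). In desiccation selected females, where the background was 0.0776%, 0 were called, with Ddc and ple at an unadjusted p under 0.05 (background 7.17%). The constant 30, cold, longevity and starvation selected females had 0 called members (background 0%), with futsch and Ddc at an unadjusted p under 0.05 in constant 30 (background 6.98%) and longevity selected (7.95%) and Ddc alone in cold (7.9%) and starvation selected (9.21%). An F test for any difference between the 8 groups called 0 of the 5 (background 0.0554%), and its unadjusted p was under 0.05 for futsch and nSyb (background 15.4%). The 7 comparisons share their control arrays, so their results are not independent. Since the 5 genes were chosen with earlier results of these data known, these counts describe them only.

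**Figure D2:**
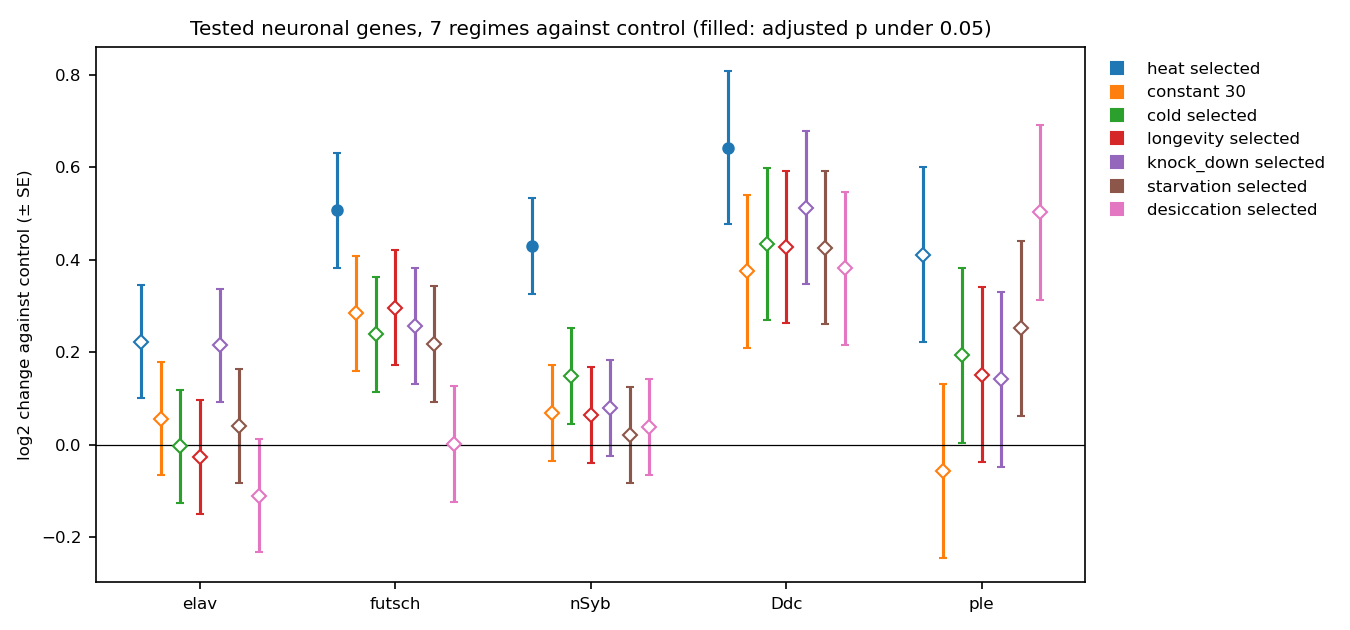
Log2 change of each regime against control for the 5 tested genes, with bars for the standard error of the fit (n = 3 lines per group). The filled points, at an adjusted p under 0.05, are futsch, nSyb and Ddc in heat selected females, at 0.51, 0.43 and 0.64.

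Whether heat selected females differed from the other regimes was asked with a contrast that leaves the control arrays out. nSyb was 0.36 ± 0.08 above the mean of the 6 other regimes (5.15 against 4.79, adjusted p = 0.0155), where 11.1% of all tested probe sets were called. futsch stood 0.29 ± 0.10 above them (adjusted p = 0.0540) and elav 0.19 ± 0.09 (adjusted p = 0.163), and neither was called. For Ddc the difference was 0.22 ± 0.13 (adjusted p = 0.246), with a 95% interval from -0.05 to 0.48, and for ple 0.21 ± 0.14 (adjusted p = 0.316). The nSyb difference was not called without heat selected replicate 2 (0.26, adjusted p = 0.245) or with the RNA quality covariate (0.27, adjusted p = 0.378). The futsch difference was called with no filter and with the replicate number as a block (adjusted p = 0.0332). It was also called without constant 30 replicate 2, cold selected replicate 3, knock_down selected replicate 2 or starvation selected replicate 3, and its adjusted p ran from 0.0316 to 0.313 over the arrays left out.

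The heat selected calls of futsch, nSyb and Ddc were lost when control replicate 1, control replicate 2, heat selected replicate 1 or heat selected replicate 2 was left out, with a covariate for RNA quality, with the 2 groups fitted alone, and with p adjusted over the 7 comparisons together, a setting added after the data were seen. The changes themselves stayed above 0, between 0.35 and 0.60 for futsch, 0.33 and 0.55 for nSyb and 0.53 and 0.82 for Ddc when 1 array was left out. With the RNA quality covariate they were 0.49 for futsch (adjusted p = 0.239), 0.34 for nSyb (adjusted p = 0.274) and 0.62 for Ddc (adjusted p = 0.250). RNA quality was measured as the level of 3' minus that of 5' control probe sets for actin, GAPDH and eIF-4a. A lower value of this measure is a smaller excess of 3' over 5' signal, not a poorer RNA. It stood at 1.62, 1.34 and 1.68 in heat selected and at 1.74, 1.69 and 1.82 in control females, so the groups did not overlap. On the other 18 arrays it ran from 1.50 to 1.93. The difference in RNA quality and the selection regime thus lie along the same arrays, and no other test of its part was made.

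Ank2 was picked for its pattern, and its values are given without a test. On its brightest probe set it was at 6.53, 6.79 and 6.64 in heat selected and at 6.41, 6.81 and 6.59 in knock_down selected females, against 5.52, 5.76 and 6.11 in control. These 6 arrays were the highest of the 24, and the margin to the rest was narrow, since the lowest of them was at 6.41 and the highest of the other 18, longevity selected replicate 3, at 6.40. The group means were 6.65 ± 0.13 (SD, n = 3) in heat selected, 6.60 ± 0.20 in knock_down selected and 5.80 ± 0.30 in control females, which makes heat selected 1.80-fold and knock_down selected 1.74-fold the control level. The other 5 regimes lay between, from 6.12 in longevity selected and desiccation selected to 6.19 in constant 30 and starvation selected females, and neighbours in the order of their means overlapped.

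The Ank2 probe sets did not move alike. The second brightest was at 4.49 ± 0.21 in heat selected, 4.30 ± 0.06 in knock_down selected and 4.45 ± 0.03 in control females, and its highest mean was that of cold selected females, 4.53. The one after it was at 4.27 ± 0.12, 4.05 ± 0.11 and 4.14 ± 0.06 in the same groups. Thus the knock_down selected means of both lay below control, while that of the brightest lay above. The dimmest stayed under 4 on all arrays and did not pass the filter. Ank2 makes several transcripts of very different length, and the labels do not say which of them each probe set reads.

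**Figure D3:**
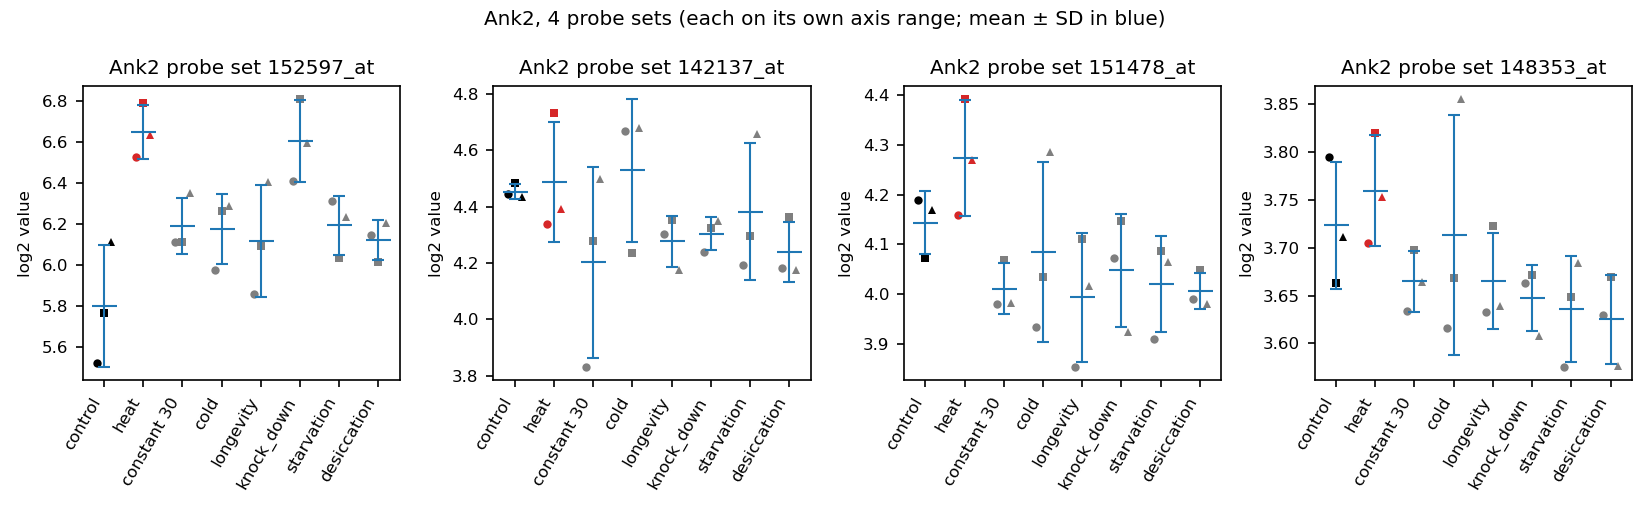
Log2 values of the 4 Ank2 probe sets on each array, with the mean ± SD of 3 lines per group in blue (axis ranges differ between panels; circle, square and triangle are replicate lines 1, 2 and 3). Of the 4 panels, only in the first do both heat selected and knock_down selected arrays lie above every control array.

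Cdk5 was also picked for its pattern, and its heat selected values were low. It was at 6.70, 6.44 and 6.93 in heat selected and at 7.26, 7.10 and 7.22 in control females. All 21 arrays that were not heat selected, from 7.10 to 7.66, lay above every heat selected array. The heat selected mean was 6.69 ± 0.25 against 7.19 ± 0.08 in control, 0.705 times the control level. Longevity selected females had the highest mean, 7.59 ± 0.09 with values of 7.66, 7.48 and 7.62, which is 1.31-fold control. The means of the other 5 regimes lay above control as well, from 7.28 in knock_down selected to 7.42 in desiccation selected females. In the order of means, control and heat selected did not overlap, and all neighbours from longevity selected down to control did. With the RNA quality covariate the Cdk5 difference between heat selected and control was -0.34 in place of -0.50. Cdk5alpha, the fly activator subunit of Cdk5, was at 4.62 in heat selected and 4.43 in control females and was not called (adjusted p = 0.579).

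Correlations between members differed over the 24 arrays. nSyb correlated with futsch at a Pearson r of 0.70 and with Ddc at 0.66, and with Cdk5 at -0.72. ple correlated with elav at -0.03 and with futsch at 0.11. Of the deviations from the group means, which leave out the differences between groups, those of nSyb correlated at 0.59 with futsch and 0.65 with Ddc. These values describe 24 arrays that share groups and normalization. Among 7425 other genes, the 3 most like nSyb over the 24 arrays were Plp, a centrosome protein, CG7378 and Ca-alpha1D, a voltage-gated calcium channel, with r of 0.89, 0.88 and 0.88. futsch was most like CG9008, sls (the titin-like muscle protein) and CG7992, with r of 0.80, 0.78 and 0.78. Ddc was most like CG13920, CG9743 and CAP, with r from 0.93 to 0.90. For elav these were Grp170, ImpL2 and CG9839, with r from 0.84 to 0.77, and for ple sphe, CG7203 and CG7214, with r from 0.67 to 0.65. Ank2 was most like FASN2, a fatty acid synthase (r = 0.90), CG16904 and CG7910, and Cdk5 was most like apolpp, the fat body lipophorin (r = 0.86), CG31224 and VhaAC45.

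Other genes with roles in neurons were read from 7 lists, which together held 80 tested genes without the members. Whether their RNA comes from neurons alone was not tested, and control means differed widely, with Nplp2 at 13.40 and Syn at 4.25. In heat selected females 4 of them rose and 0 fell, which is 5% of the lists beside 2.84% of all tested probe sets. The median change was 0.14, against 0.01 over all tested probe sets, and 64 of the 80 lay above 0 (80%, against 53.5% of all tested probe sets). Of the 80, 69 were above 4 on all arrays. Over all 134 list genes on the array, the 54 under the filter included, the median difference was 0.09. The lists were chosen with earlier results of these data known, so their counts and shares describe them only. The genes that rose were Vmat, Hk, tau and Rbp9. Their number was 0 without control replicate 1 or 2 or heat selected replicate 1 or 2 and with the RNA quality covariate, 13 without heat selected replicate 3 and 16 without control replicate 3. The share of all tested probe sets called in those fits was not counted, so these numbers cannot be set beside a background.

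Vmat, which loads dopamine and other monoamines into vesicles, was at 7.06, 7.14 and 6.77 in heat selected and 6.41, 6.20 and 6.69 in control females, a change of 0.56 ± 0.14 (adjusted p = 0.0393). A second Vmat probe set differed by 0.06. Hk, the beta subunit of the Shaker potassium channel, was at 5.15, 4.92 and 4.60 against 4.01, 4.55 and 4.47, a change of 0.55 ± 0.14 (adjusted p = 0.0401). Rbp9, an RNA-binding protein of the elav family, was at 6.27, 6.52 and 5.91 against 5.43, 5.39 and 5.81, a change of 0.69 ± 0.17 (adjusted p = 0.0401), and its second probe set differed by 0.06. In these 3 genes, already picked as called, the groups did not overlap, and heat selected replicate 3 was the lowest heat selected array. Of all tested probe sets, 12% were higher without overlap. tau, a microtubule protein of axons, rose by 0.34 ± 0.09 (adjusted p = 0.0444), with 0.39 and 0.04 on its other probe sets.

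List medians ran from 0.10 to 0.40. Transmitter synthesis and transport had a median of 0.40 over 7 tested genes, among them Eaat2, of the excitatory amino acid transporter family (0.61, adjusted p = 0.0618). Of these 7, 5 were above 4 on all arrays, and over all 13 genes of that list on the array the median was 0.13. Voltage-gated channels had a median of 0.18 over 12 genes, with Ca-alpha1D at 0.46 (adjusted p = 0.0536) and Sh, the Shaker channel, at 0.36. Neuropeptides and their processing enzymes had a median of 0.17 over 12 genes and 0 called, with Nplp3 at 1.52 (adjusted p = 0.104) and Nplp1 at 0.42 (adjusted p = 0.0837). The axon list had a median of 0.16 over 18 genes, with 1 risen (tau) and 0 fallen. The vesicle cycle list, the machinery nSyb belongs to, had a median of 0.12 over 18 genes and 0 called, with Rim, of the active zone, at 0.33 (adjusted p = 0.0968) and Dap160, an endocytic scaffold, at -0.29 (adjusted p = 0.0612). Receptors had a median of 0.11 over 7 genes and 0 called, with GluClalpha at 0.53 (adjusted p = 0.142), and only 7 of 25 receptor genes on the array passed the filter. The RNA-binding proteins and transcription factors had a median of 0.10 over 6 genes, with Rbp9 risen and lola at -0.33 (adjusted p = 0.190).

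Enzymes of dopamine use and cuticle tanning stood beside Ddc and ple. Of 5 tested genes, t, which recycles dopamine and histamine from their beta-alanine conjugates, rose by 0.45 ± 0.11 (adjusted p = 0.0396), from 4.45, 4.74 and 5.04 in control to 5.26, 5.18 and 5.14 in heat selected females. speck, an N-acetyltransferase of dopamine, was at 0.41 (adjusted p = 0.0698), Pu, which starts the synthesis of the hydroxylase cofactor, at 0.19. The 2 others were lower, amd at -0.36 and Catsup at -0.15 (unadjusted p = 0.0447, adjusted p = 0.231). Against the mean of the 6 other regimes 3 of the 5 lay below 0, with a median of -0.03 and 0 called. In no other regime against control was a gene of the neuronal lists called. In knock_down selected females 20 of the 80 had an unadjusted p under 0.05, where 10.4% of all tested probe sets did, and the median of the 80 was 0.04.

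**Figure D4:**
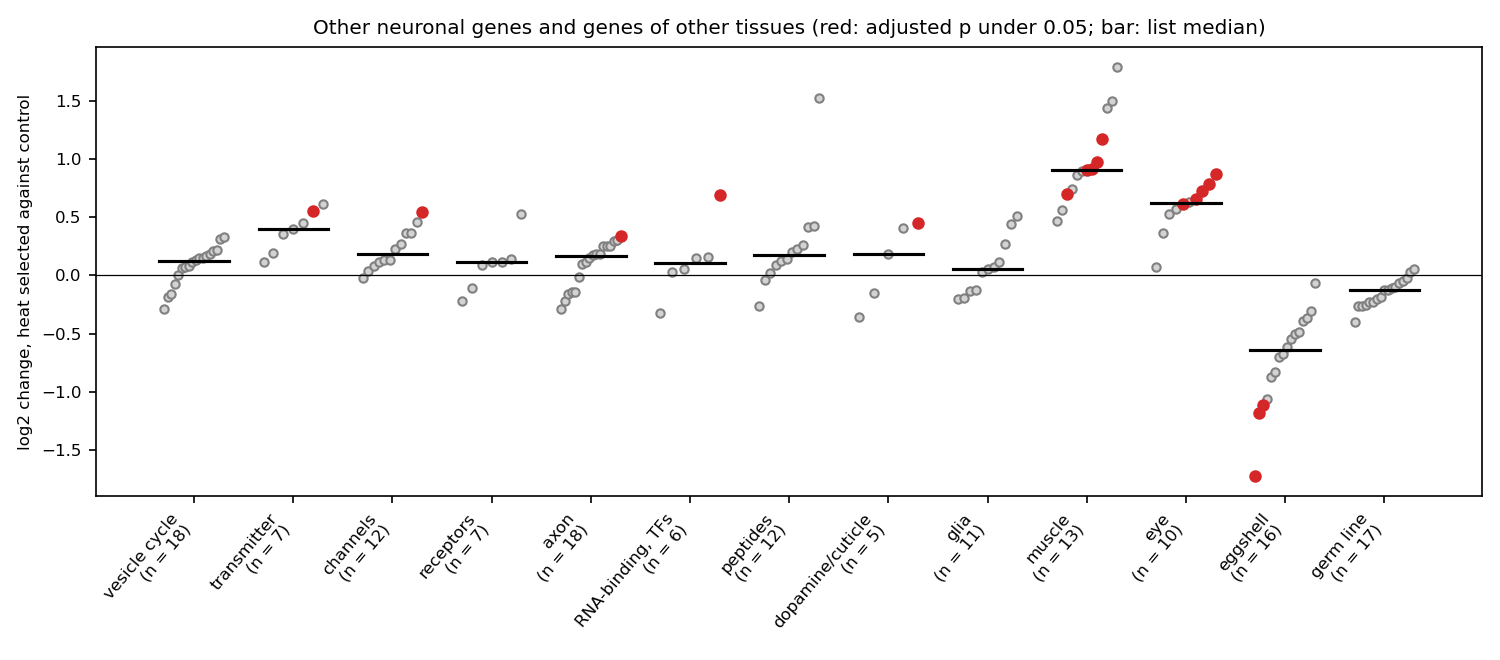
Log2 change of heat selected against control for each tested gene of the neuronal lists, the dopamine and cuticle list, glia and 4 lists of other tissues, with a bar at each list's median. Red points are called genes, 4 in the 7 neuronal lists, and the muscle and eye medians, 0.91 and 0.62, lie above those of the neuronal lists.

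Against the mean of the 6 other regimes, 16 of the 80 neuronal list genes were called in heat selected females, 13 higher and 3 lower, which is 20% beside 11.1% of all tested probe sets (7% higher and 4.06% lower). Those higher were Vmat (0.40) and Hdc, which makes histamine (0.23), the channels Hk (0.39), Ca-alpha1D (0.32) and NaCP60E (0.50), the vesicle genes CASK (0.22), Syt7 (0.24) and Rab3 (0.18), the axonal genes tau (0.25), Rtnl1 (0.19) and wnd (0.22), and the peptides Dh44 (0.29) and Nplp1 (0.34). These counts, too, describe the lists only, as the lists were chosen with earlier results of these data known. NaCP60E was above 4 on only 3 of the 24 arrays, 1 of them heat selected. The 3 that fell were Klc, the kinesin light chain (-0.24), Nplp2 (-0.31) and lola (-0.54).

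Genes of other tissues moved with the same arrays. The counts called stand beside 1.99% of all tested probe sets called higher in heat selected females and 0.842% called lower. These lists, too, were chosen with earlier results of these data known. Photoreceptor genes had a median change of 0.62 in heat selected females, and 5 of 10 rose, among them Gbeta76C (0.87) and inaD (0.78). Muscle genes had a median of 0.91, and 5 of 13 rose, with Tm2 at 0.97. Of 16 eggshell and yolk genes all lay below 0, with a median of -0.65, and 3 fell, Femcoat, Cp19 and Cp16, while 17 germ line genes had a median of -0.12 and 0 were called. Fat body genes had a median of -0.20 over 9 genes, and 3 fell, Lsp2 (-4.05), srp (-1.07) and bmm (-0.31). Glial genes had a median of 0.06 over 11 genes and 0 were called, with nrv3 at 0.51 (adjusted p = 0.133), Gs2 at 0.44 (adjusted p = 0.122) and loco at -0.20 (adjusted p = 0.114).

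The mean log2 value of the eye list was 7.49, 7.45 and 7.01 on heat selected replicates 1, 2 and 3, 6.53, 6.56 and 7.10 on the control arrays and 6.88 to 7.44 on the other 18. That of the muscle list was 9.83, 9.80 and 9.05 against 8.27, 8.47 and 8.96, with 8.17 to 9.41 elsewhere. The eggshell list was at 11.02, 11.39 and 12.19 against 12.40, 12.24 and 12.11, with 11.79 to 12.68 elsewhere, and the glia list at 7.39, 7.29 and 7.29 against 7.15, 7.22 and 7.37, with 7.20 to 7.36 elsewhere. Heat selected replicate 3 and control replicate 3 lay within the range of the other 18 arrays in the eye, muscle and eggshell lists, and in the eye list control replicate 3 was the higher. The fat body list differed in this, at 8.29, 7.94 and 8.25 on the heat selected arrays against 8.89, 8.97 and 8.72 in control. All heat selected arrays there lay below the other 18, which ran from 8.35 to 9.05. Over the 24 arrays, elav, futsch, nSyb, Ddc and ple correlated with the muscle list mean at 0.44, 0.51, 0.82, 0.72 and 0.57. In the same order the Pearson r was 0.60, 0.67, 0.70, 0.84 and 0.28 with the eye list. With the germ line list it was -0.52, -0.43, -0.79, -0.68 and -0.28. The part of these tissues' shares of the RNA in the results on the neuronal genes was not tested.

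**Figure D5:**
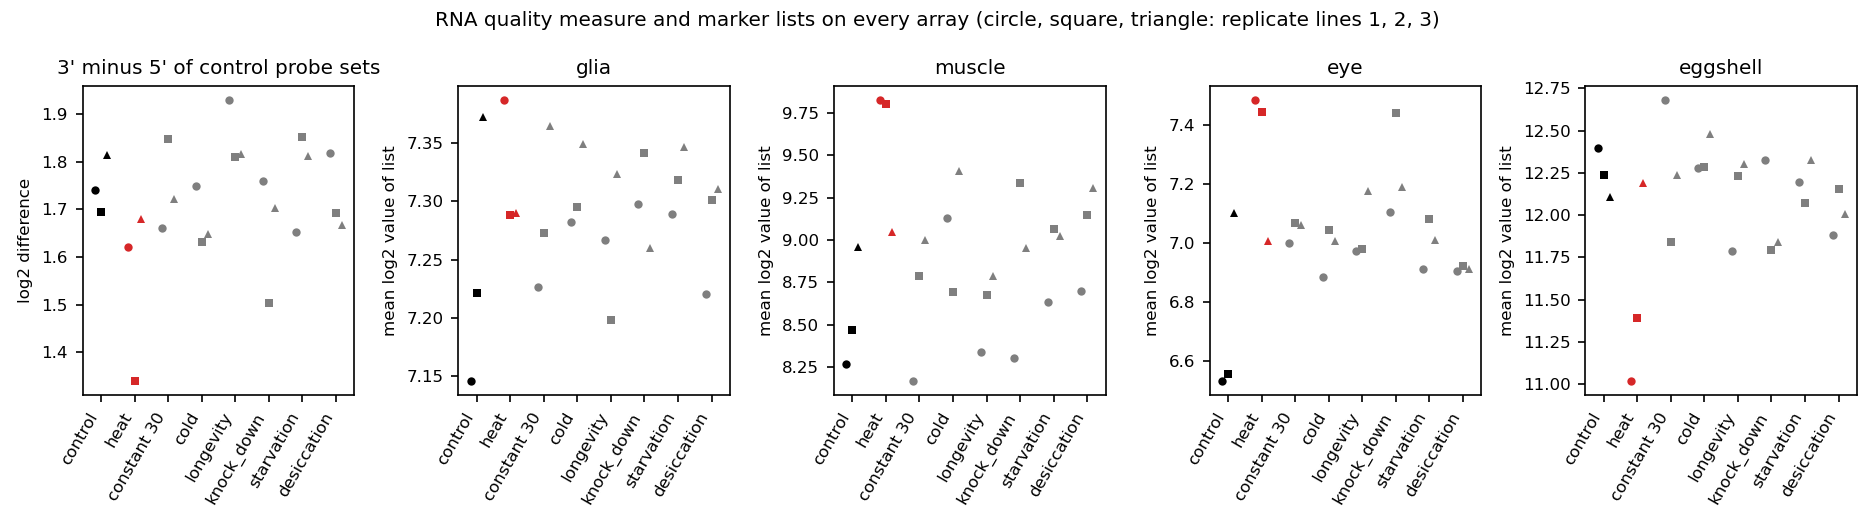
The 3' minus 5' difference of control probe sets and the mean log2 value of the glia, muscle, eye and eggshell lists on each of the 24 arrays (circle, square and triangle are replicate lines 1, 2 and 3). Heat selected replicates 1 and 2 (red) are the 2 highest arrays for muscle and eye and the 2 lowest for eggshell. In these lists heat selected replicate 3 lies within the range of the other groups.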

How the data were processed

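The deposited table holds 14010 probe sets on 24 arrays. The authors made its values with GCRMA on a log2 scale: GCRMA is named per the submitters' processing notes, without version or settings, and the scale follows from the range of the values (-0.18 to 14.95); no further normalization was added. The 44 control probe sets were left out. Probe sets were named by the annotation of the platform, and outdated symbols were replaced from a RefSeq gene table. Of the other 13966 probe sets 12443 named 1 gene, 327 several and 1196 none.

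All 24 arrays entered 1 limma fit (version 3.58.1, R 4.3.3) with a mean for each group, two-sided moderated tests and Benjamini-Hochberg adjustment within each comparison, which was tested on simulated data. The members and lists were chosen with earlier results of these data known. Named were all members, the called genes of each list (up to 4 by p, at least 2 genes per list and comparison) and, per member, the 3 genes of highest correlation. Cdk5alpha, Sh, Pu, amd, Catsup and nrv3, and further probe sets of called genes, were named after their values were seen. A gene with several tested probe sets is represented in lists by that of the highest mean. Alternatives were other filters, normalizations, priors, array weights, an RNA quality covariate, a replicate block, the compared groups alone, and each array left out in turn. The number of arrays limits the precision.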

Additional observations from a re-analysis of the deposited data

Results flagged for a closer look

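nSyb differed between heat selected and the other regimes in a test of that difference itself. Heat selected females stood 0.36 ± 0.08 above the mean of the 6 other regimes (adjusted p = 0.0155), with 2 of the 3 heat selected arrays above all 21 others. The adjusted p ran from 0.0031 to 0.245 when 1 array was left out and from 0.00865 to 0.378 under the other settings.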

How the results depend on the processing

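Members called in heat selected against control numbered 3, and 1 with no filter, with a filter at 6 (which left 1 tested member, Ddc) or with quantile normalization. That count was 0 with the RNA quality covariate, with the 2 groups alone, or with p adjusted over the 7 comparisons together, a setting chosen after seeing the data. Leaving out 1 array gave 0 to 3. Against the mean of the 6 other regimes the count of 1 was 2, nSyb and futsch, with no filter or with the replicate block, 0 with the filter at 6 (nSyb was not tested there) or the RNA quality covariate, and 0 to 2 with 1 array left out. The mean of the 7 regimes against control gave 1 call, Ddc, with array weights, and 0 to 1 with 1 array left out, as did knock_down selected against control. The 4 neuronal list genes called in heat selected against control were 2 with the filter at 6 or quantile normalization and 0 with no filter, the RNA quality covariate, the 2 groups alone or p adjusted over the 7 comparisons. They were 0 without control replicate 1 or 2 or heat selected replicate 1 or 2, 13 without heat selected replicate 3 and 16 without control replicate 3. For these settings the share of all tested probe sets called was not counted. No called change turned its direction under these settings. Why calls were gained or lost under these settings was not tested.

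The labels do not say that replicate numbers pair the lines, and the numbers were not taken as pairs. Of 84 same-numbered pairs of arrays, 34 had deviations from the group means that correlated above 0.1. Pairs of different numbers were not counted in this way. The mean correlation was 0.0507 for the same number and -0.0252 for different numbers. Deviations from a group mean cancel within the group, so these values are not independent of each other. Of the 24 arrays, 15 correlated best with their own number, a hint of shared deviations from the data alone. Whether the numbers pair lines is thus not settled by these values. With the replicate block 3 members and 6 list genes were called in heat selected against control, and the share of all tested probe sets called was not counted.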

Other observations

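The 4 member probe sets under the filter, those of para, futsch (2 probe sets) and Ank2, lay between 2.70 and 3.98 on all arrays. They varied together over the 24 arrays, with Pearson r from 0.68 to 0.93 over their 6 pairs, although they read 3 different genes. Each spanned only 0.22 to 0.31 from its lowest to its highest array. Heat selected replicate 2 and cold selected replicate 3 were among the 3 highest arrays of the futsch and Ank2 probe sets under the filter, and also of nSyb. For para they ranked 3 and 4. A shared cause was not tested. The 2 futsch probe sets correlated with each other at 0.91, and the brighter of them with the Ank2 probe set at 0.93.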
